A study of Mus musculus with 2 samples.

Results

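The miR-181 family of the mouse consists of 6 microRNA genes in 3 pairs on chromosomes 1, 2 and 8, and all 6 were found by symbol among the 1973 microRNA genes of the tables. They are Mir181a-1, Mir181b-1, Mir181a-2, Mir181b-2, Mir181c and Mir181d. They were measured by sequencing of RNA under 30 nucleotides from liver of strain B6NCrl embryos at 14.5 days, in 2 libraries that form 1 group without any treatment or mutation. The labels number the libraries as biological replicates 1 and 2 and give different collection days. They also call each a single liver of pooled sex and give both the same donor ID, so it is uncertain whether the spread between the libraries is that between animals. With 1 group, the levels are a description, and the only comparison is between the libraries, called the livers below.

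A microRNA gene is transcribed as a longer RNA that folds into a hairpin, from which the 5p and 3p arms are cut out. An arm loaded into an Argonaute protein pairs with messenger RNAs mainly through its seed, bases 2 to 8, and lowers their output. In miR-181 the 5p arm is the usual guide, and the family is best known from lymphocyte development, where miR-181a tunes the sensitivity of the T cell receptor, and from brain. The liver at this age is also the main blood-forming organ of the embryo. Messenger RNAs were not measured, so no target is described.

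The 5p arms are shown first because they define the family and decide which copies can be told apart. The sequences are RefSeq's for build GRCm38.p6, which held mature arms for 6 of the 6 genes and hairpins for 5, Mir181c being the other. Letters run 5′ to 3′ and capitals mark the seed.
miR-181a-5p, from Mir181a-1 and Mir181a-2: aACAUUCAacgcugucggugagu
miR-181b-5p, from Mir181b-1 and Mir181b-2: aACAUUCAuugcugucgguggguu
miR-181c-5p, from Mir181c: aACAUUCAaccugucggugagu
miR-181d-5p, from Mir181d: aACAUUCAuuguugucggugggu

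All 6 genes carry the seed ACAUUCA in the 5p arm, and no other gene among the 1058 with mature arms in the RefSeq table does. The differences lie outside the seed. Over 23 bases counted from the 5′ end, miR-181b-5p differs from miR-181a-5p by A9U, C10U and A21G, and miR-181d-5p differs from miR-181b-5p by C12U alone. Removing 1 base from miR-181a-5p gives miR-181c-5p.

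The 3p arms are shown because they differ between the copies whose 5p arms are identical.
miR-181a-1-3p, from Mir181a-1: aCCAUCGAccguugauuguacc
miR-181a-2-3p, from Mir181a-2: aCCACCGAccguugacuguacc
miR-181b-1-3p, from Mir181b-1: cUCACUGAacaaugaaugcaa
miR-181b-2-3p, from Mir181b-2: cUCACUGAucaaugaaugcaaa
miR-181c-3p, from Mir181c: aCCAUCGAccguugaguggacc
miR-181d-3p, from Mir181d: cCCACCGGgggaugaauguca

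By seed, the 3p arms fall into 4 kinds, one shared by Mir181a-1 and Mir181c, one by both Mir181b copies, and one each for Mir181a-2 and Mir181d. The miR-181a-1 and miR-181a-2 3p arms differ by U5C and U16C, and those of miR-181b-1 and miR-181b-2 by A9U within 21 compared bases. None of the 6 3p arms is found whole in another hairpin of the table.

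The sequences bear directly on what the counts hold. The Mir181a-1 and Mir181a-2 hairpins share an identical stretch of 28 bases, which covers the 23 bases of the 5p arm. The Mir181b-1 and Mir181b-2 hairpins share 26 bases, which cover the 24 bases of theirs. A read inside these stretches matches both copies, and reads that mapped to more than 1 place were counted at no gene. The counts of these 4 genes are therefore lower limits, and what can separate the copies is their 3p arm or the hairpin sequence beyond the shared stretch. No other gene of the RefSeq table makes an arm of Mir181c or Mir181d. No window of 22 bases of the Mir181d hairpin occurs in another hairpin of that table, which lacks the Mir181c hairpin. The genome was not searched, so the counts of Mir181c and Mir181d can be lower limits too. The tables do not split counts by arm. Reads mapped to more than 1 place made up 34.0% and 33.1% of the reads of replicates 1 and 2, and their division among genes is not given in the sources used here.

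**Figure D1:**
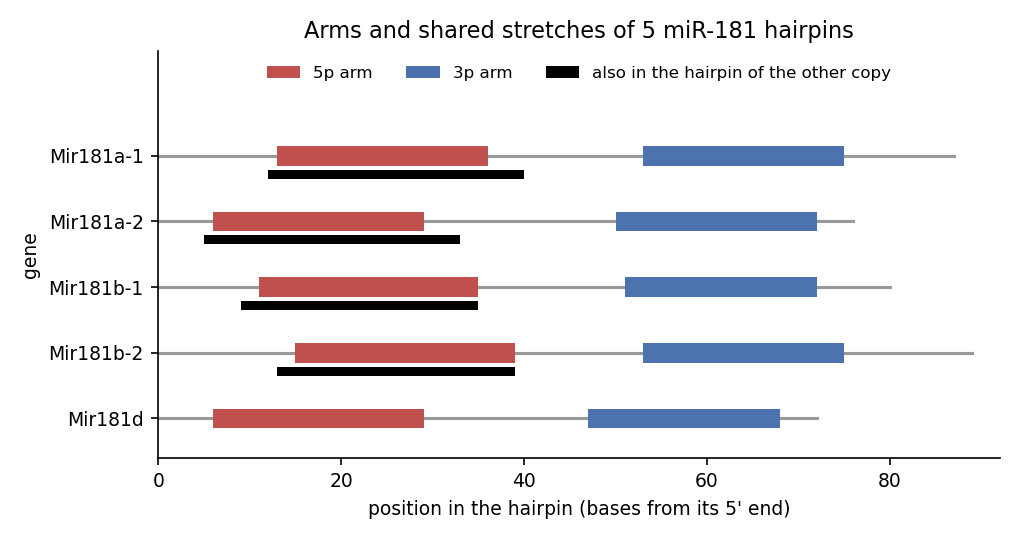
Position of the 5p arm (red), the 3p arm (blue) and the stretch also found in the hairpin of the other copy (black) along 5 miR-181 hairpins, in bases from the 5′ end of each hairpin. The black stretch of 28 bases in the Mir181a copies and of 26 bases in the Mir181b copies covers the 5p arm and does not reach the 3p arm, and Mir181d has none.

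Such sharing was present in a minority of the genes measured here. Of 301 genes with a mature entry that reached 10 counts in both libraries, 41 (13.6%) had an arm that another gene makes too, and 4 of those were Mir181a-1, Mir181a-2, Mir181b-1 and Mir181b-2. The 41 had a median level of 41.8 CPM (the usual depth-scaled count, here own-strand counts over their library total) against 248.9 CPM for the 260 genes whose arms are each made by 1 gene. The lower quartiles were close, at 24.0 and 24.3 CPM, while the upper quartiles were 183.4 and 1759 CPM. Genes kept under 10 counts by such loss of reads are not among them.

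The 3 pairs lie in different surroundings, given in build GRCm38 (mm10) from GENCODE M21. Mir181a-1 (ENSMUSG00000065565, chromosome 1 from 137966455 to 137966541) and Mir181b-1 (ENSMUSG00000065458, 137966639 to 137966718) are separated by 97 bases on the plus strand. Both lie in an intron of the noncoding transcript Gm4258. An exon of A430106G13Rik, another noncoding RNA of that strand, spans Mir181b-1 and overlaps the last 11 bases of Mir181a-1, and the noncoding RNA Gm26936 spans both on the opposite strand. Mir181a-2 (ENSMUSG00000065423, chromosome 2 from 38852735 to 38852810) and Mir181b-2 (ENSMUSG00000065578, 38853830 to 38853918) are 1019 bases apart on the plus strand. They lie opposite to introns of Nr6a1, which encodes an orphan nuclear receptor, with no spanning gene on their own strand, and Mir181b-2 also lies opposite to an exon of Gm44144. Mir181c (ENSMUSG00000065483, chromosome 8 from 84178873 to 84178961) and Mir181d (ENSMUSG00000076338, 84178716 to 84178787) are 85 bases apart on the minus strand. Both lie in an intron of a transcript of Nanos3, a protein-coding gene of germ cells.

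Sequencing gave 6395680 reads for replicate 1 and 8068090 for replicate 2, and own-strand counts at microRNA genes came to 2353946 and 3132763. The label of liver was checked by markers. Mir122, the microRNA of liver cells, had 97349 and 110371 CPM in replicates 1 and 2, Mir451a of red cells 38020 and 30243 CPM, and Mir126a of vessels 61517 and 57654 CPM. The neuronal Mir137 had 242.1 and 22.3 CPM, and 3 of the 13 neural markers with a row (Mir9-2, Mir124a-2 and Mir124a-3) had no count in either library. The 8 muscle markers with a row summed to 312.2 and 278.0 CPM. Most of this was Mir499, with 272.7 and 258.2 CPM, while Mir206 had 31.0 and 14.05 CPM and 3 (Mir1a-1, Mir133a-1 and Mir133a-2) had no count in either library. The neural and muscle genes without a count are numbered copies of a microRNA. Reads matching more than 1 copy were counted at no gene, so the lack of counts does not show that these microRNAs were absent.

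Together the 6 genes had 6286 counts in replicate 1 and 7560 in replicate 2. These are 2670 and 2413 CPM, or 0.267% and 0.241% of the counts, with a mean of 2542 ± 181.9 CPM (SD, n = 2). All 6 had at least 10 counts in each library, as did 332 of the 1973 genes. None had a count on the opposite strand in either library, which allows up to 3 counts, or 1.27 and 0.958 CPM. In whole tissue, fewer cells that make a microRNA and less of it per cell cannot be told apart.

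Mir181c, whose arms are made by no other gene, had the highest level. It had 2913 counts in replicate 1 and 3510 in replicate 2, or 1238 CPM (95% Clopper-Pearson interval 1193 to 1283) and 1120.4 CPM (1084 to 1158). It ranked 88th of the 1973 genes by mean level. Its neighbour Mir181d had 1848 and 2241 counts, or 785.1 CPM (749.7 to 821.7) and 715.3 CPM (686.0 to 745.6), at rank 108. The lower of the Mir181c values lay above the higher of the Mir181d values, so the livers did not overlap between these genes.

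Of the copies that share a 5p arm, Mir181a-1 was highest. It had 940 and 1065 counts, or 399.3 CPM (374.2 to 425.7) and 339.96 CPM (319.8 to 361.0), at rank 133. Mir181b-2 had 447 and 583 counts, or 189.9 CPM (172.7 to 208.3) and 186.1 CPM (171.3 to 201.8). In both genes these counts leave out 5p reads that cannot be assigned to a copy, so they are not levels of miR-181a-5p or miR-181b-5p.

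The remaining copies were lower. Mir181a-2 had 127 and 146 counts, or 53.95 CPM (44.98 to 64.2) and 46.6 CPM (39.4 to 54.8). Mir181b-1 had 11 and 15 counts, or 4.67 CPM (2.33 to 8.36) and 4.79 CPM (2.68 to 7.90), just above the minimum of 10 counts. Its rank was 332 of 1973. The intervals reflect counting error alone and take each read as an independent molecule. PCR copies are not independent, so the intervals can be too narrow even for that error.

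**Figure D2:**
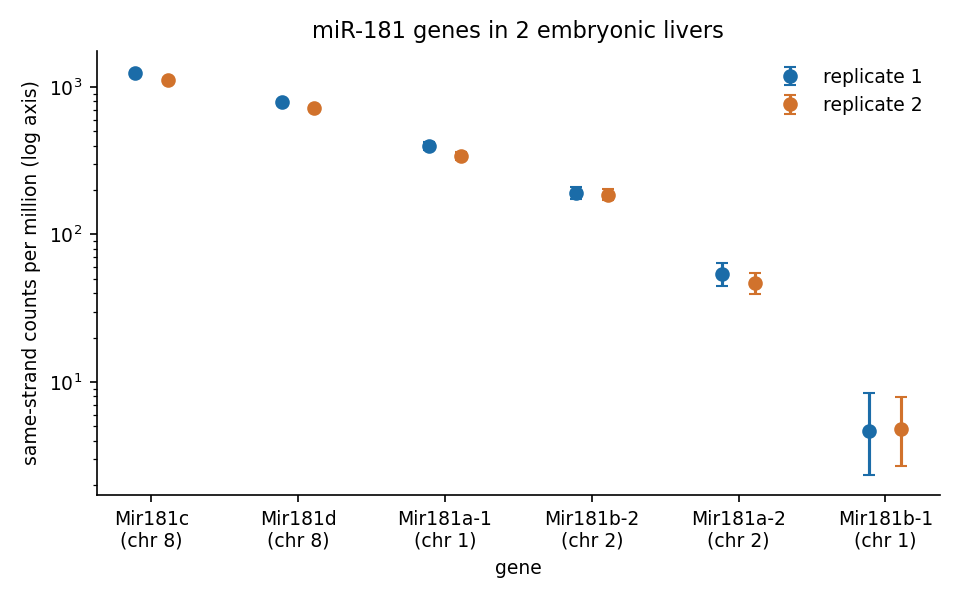
Level in CPM (log axis) of the 6 genes in replicate 1 (blue) and replicate 2 (orange), ordered by mean level, with 95% Clopper-Pearson intervals as bars. The levels run from 1238 and 1120.4 CPM for Mir181c to 4.67 and 4.79 CPM for Mir181b-1, and the livers lie closer to each other than to the next gene.

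From high to low the order was Mir181c, Mir181d, Mir181a-1, Mir181b-2, Mir181a-2 and Mir181b-1. Each of the 5 neighbouring steps exceeded the spread between the livers, with no overlap of their values. The order was the same per 100 bases of annotated gene length, where Mir181c had 1390.4 and 1259 CPM, Mir181d 1090.4 and 993.5 CPM, and Mir181b-1 5.84 and 5.99 CPM. The steps between Mir181c or Mir181d and the other genes compare countable reads rather than mature arms, since the 4 others lose 5p reads that match a second copy.

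The copies of one microRNA were compared with each other, since both lose the 5p reads of their shared stretch. For miR-181a the chromosome 1 copy led, with 7.40 counts at Mir181a-1 for each count at Mir181a-2 in replicate 1 (95% exact binomial interval 6.14 to 8.98) and 7.29 in replicate 2 (6.13 to 8.73). For miR-181b the chromosome 2 copy led, with 40.6 counts at Mir181b-2 for each at Mir181b-1 in replicate 1 (22.5 to 81.99) and 38.9 in replicate 2 (23.4 to 69.9). Per 100 bases of gene the same ratios were 6.47 and 6.37 for the miR-181a copies, and 36.5 and 34.9 for the miR-181b copies. For both, the value in each liver lay inside the interval of the other. They describe the reads that mark a copy, not the 5p arm that each copy makes.

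The same counts of the Mir181a and Mir181b copies were also set against each other within the pairs, which adds no separate observation. On chromosome 1 the count at Mir181a-1 was 85.5 times that at Mir181b-1 in replicate 1 (47.5 to 171.8) and 71.0 times in replicate 2 (42.9 to 127.3). On chromosome 2 Mir181b-2 had 3.52 times the count of Mir181a-2 (2.88 to 4.32) and 3.99 times (3.33 to 4.82). On chromosome 8 Mir181c had 1.58 times the count of Mir181d (1.49 to 1.67) and 1.57 times (1.48 to 1.65), or 1.28 and 1.27 times per 100 bases of gene. The countable reads of a pair thus differed most on chromosome 1 and least on chromosome 8, in both livers and without overlap of the intervals. The ratios on chromosomes 1 and 2 leave out reads inside the shared 5p stretches, while those on chromosome 8 can hold 5p reads. This ranking of the loci therefore compares unlike reads.

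By locus, Mir181c and Mir181d held most of the countable family reads. Their share in replicate 1 was 75.7% and in replicate 2 it was 76.1%, with 95% Clopper-Pearson bounds of 74.7 to 76.8 and 75.1 to 77.0. The pair on chromosome 1 held 15.1% (14.3 to 16.0) and 14.3% (13.5 to 15.1), nearly all of it from Mir181a-1. The pair on chromosome 2 held 9.13% (8.43 to 9.87) and 9.64% (8.99 to 10.3). The intervals of the livers overlapped at each locus. Adding the unassigned 5p reads of the pairs on chromosomes 1 and 2 could only lower the share of chromosome 8.

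**Figure D3:**
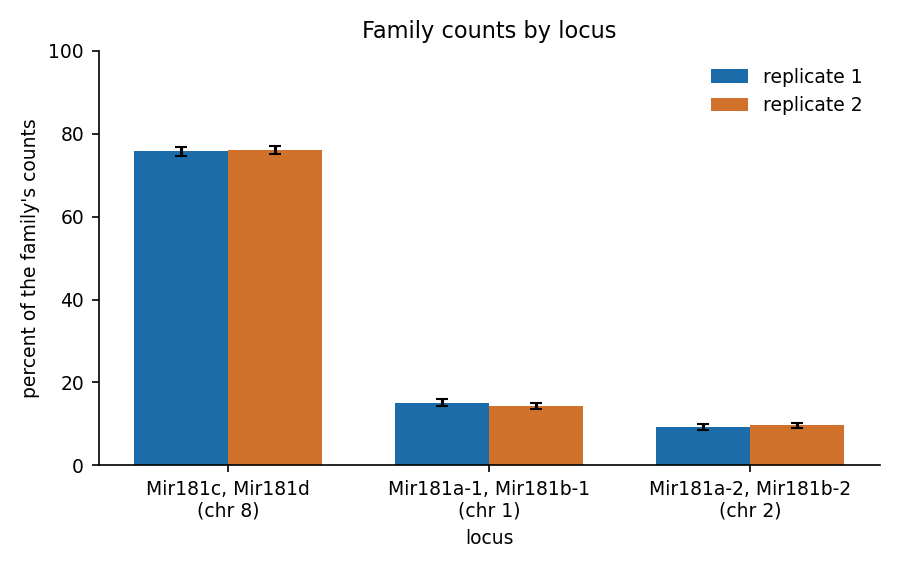
Percent of the family's same-strand counts from each of the 3 loci in replicate 1 (blue) and replicate 2 (orange), with 95% Clopper-Pearson intervals as bars. The Mir181c and Mir181d locus holds 75.7% and 76.1%, and the intervals of the livers overlap at every locus.

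The livers were then compared gene by gene. In the family 3 of 6 genes differed, beside 41.9% of the 332 genes tested, and all 3 were slightly higher in replicate 1, as were 18.4% of the genes tested. The test was two-sided, exact and binomial, set each pair of counts against the depths of the libraries, and was adjusted by Benjamini-Hochberg over the 332 genes. Mir181a-1 was 1.17-fold higher in replicate 1 (95% interval 1.07 to 1.28, exact binomial adjusted p = 0.00118). Mir181c was 1.10-fold higher (1.05 to 1.16, exact binomial adjusted p = 0.000287). Mir181d was 1.10-fold higher (1.03 to 1.17, exact binomial adjusted p = 0.00912).

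The other 3 did not pass. The ratio of replicate 1 to replicate 2 was 1.16 for Mir181a-2 (0.905 to 1.48, exact binomial adjusted p = 0.381), 1.02 for Mir181b-2 (0.900 to 1.16, adjusted p = 0.850) and 0.976 for Mir181b-1 (0.405 to 2.27, adjusted p = 1). At the depth of Mir181b-1 and Mir181a-2, a difference of the size seen for Mir181a-1 lies within the interval.

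These differences were of the size seen across the microRNA genes. Without regard to direction, 3 of 6 called lies near the 41.9% called among all genes. By direction, 3 of 6 were higher in replicate 1, beside 18.4% of all genes, and none in replicate 2, beside 23.5%. The ratio was above 1 in 5 of the 6 and in 142 of all 332 genes. The direction of the family as a set was not tested. Among the 215 genes that reached 100 counts in both libraries the share was 60.5%, against 3 of 5 in the family. The split into 61 higher and 78 lower in replicate 1 became 69 and 59 with edgeR's TMM scaling and 69 and 58 with DESeq2 size factors. It moved the other way, to 55 and 92, with the highest gene left out of the totals, and to 49 and 81 with a minimum of 100 counts. The 3 family genes were called higher in replicate 1 under each of these alternatives. The median log2 ratio of replicate 1 to replicate 2, computed with 0.5 added to each count, was 0.14 over the family and -0.03 over all 332 genes. The median absolute log2 ratio was 0.14 in the family and 0.16 over all genes. The test compares these 2 libraries, has no replicate check and covers counting error only, with each read taken as independent.

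**Figure D4:**
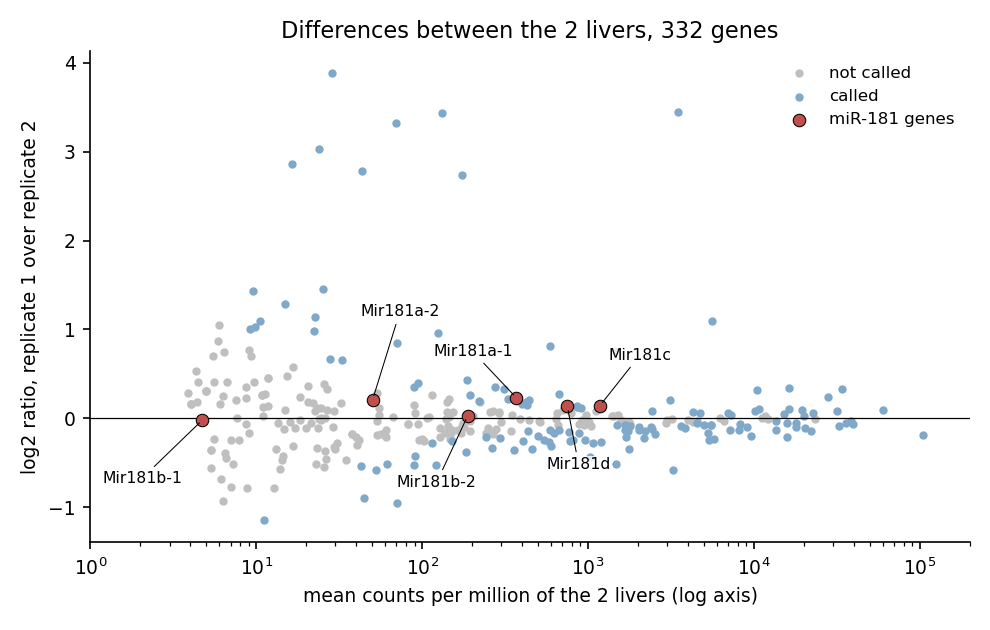
Log2 ratio of replicate 1 over replicate 2 against the mean CPM (log axis) of the 332 genes tested, with genes called by the exact binomial test in light blue, others in grey and the 6 miR-181 genes in red. The miR-181 genes lie between -0.02 (Mir181b-1) and 0.23 (Mir181a-1), inside the main band of genes.

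Markers of several cell types differed between the livers as well, beside 41.9% of the 332 genes tested. Of all these genes, 18.4% were higher in replicate 1 and 23.5% in replicate 2, and no list was tested against these shares. The 3 measured red cell markers summed to 50018 CPM in replicate 1 and 40030.5 CPM in replicate 2, with Mir451a and Mir144 higher in replicate 1 and Mir486 higher in replicate 2 by the exact test. The 5 liver cell markers summed to 105667 and 119139 CPM, 3 of them higher in replicate 2. The 6 white cell markers with a row summed to 12148 and 11553 CPM, and of the 5 tested 1 was higher in each liver. Mir126a of vessels was 1.07-fold higher in replicate 1 (exact binomial adjusted p = 6.94e-74). The 13 neural markers summed to 630.0 and 287.3 CPM, and 4 of the 6 tested were higher in replicate 1. Of the 3 muscle markers tested, Mir206 was 2.21-fold higher in replicate 1 (exact binomial adjusted p = 0.000132), and Mir208b and Mir499 did not pass. The part of these cells in the family's difference was not tested.

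Other microRNAs of blood cells gave no common direction. Of the 9 listed, Mir142 has no value here, Mir146b had 3 and 6 counts, and 7 were tested. Mir223, of granulocytes and monocytes, had 10498 and 9885 CPM and was 1.06-fold higher in replicate 1 (exact binomial adjusted p = 1.34e-11). Mir155, induced when lymphocytes and macrophages are activated, had 77.7 and 104.1 CPM and was higher in replicate 2 (exact binomial adjusted p = 0.00468). Those 2 of 7 were the only calls, beside 41.9% of all genes, and the median log2 ratio of the 7 was 0.03. Mir342, which like Mir223 is abundant in white cells, had 1404 and 1378 CPM, and Mir221, which acts on the stem cell factor receptor Kit in red cell precursors, had 664.4 and 639.4 CPM.

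The genes most like each member were taken as the 2 with the smallest Euclidean distance in log2(CPM + 1) over the 2 libraries, among the 332 genes. Mir27b (1149 and 1082 CPM) was nearest to Mir181c, followed by Mir494 (1084 and 1301 CPM), and Mir301 (809.7 and 776.95 CPM) and Mir503 (727.3 and 678.6 CPM) were nearest to Mir181d. For Mir181a-1 they were Mir222 (355.6 and 345.1 CPM) and Mir32 (423.5 and 379.2 CPM). For Mir181b-2 they were Mir30b (187.3 and 188.0 CPM) and Mir1981 (192.9 and 196.3 CPM). For Mir181a-2 they were Mir26a-2 (58.6 and 48.2 CPM) and Mir338 (56.9 and 52.35 CPM). For Mir181b-1 they were Mir216b, with the same counts, and Mir5116 (4.67 and 4.15 CPM). With 2 libraries of 1 group, such likeness is one of level alone.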

How the data were processed

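The deposited tables, 1 per library, hold raw counts of reads per microRNA gene, regardless of strand, on the gene's strand and on the other strand. Notes deposited with them give assembly mm10, annotation M4 and a separate alignment for each table. Neither aligner nor counter is given in the sources used here. Rows for reads counted at no gene were left out of the totals. They hold 63.2% and 61.2% of the reads, with 34.0% and 33.1% mapped to more than 1 place, 18.6% and 17.7% unmapped, and 10.6% and 10.4% in no gene on that strand. Symbols came from GENCODE M21 by gene ID and matched 1894 of 1973 genes. CPM are own-strand counts over their total in the library.

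Genes reaching 10 counts in both libraries were compared by a two-sided exact binomial test (SciPy 1.17.1) with Benjamini-Hochberg adjustment over all of them and a threshold of 0.05. The test was checked on simulated counts that vary by counting error alone. The check therefore does not cover spread between animals or PCR copies. No quasi-likelihood fit was possible with 1 library per liver. edgeR 4.0.16 and DESeq2 1.42.0 gave alternative scalings. Named are all 6 members, the 2 nearest genes of each, the 3 highest blood list members (Mir223, Mir342 and Mir221), and Mir122, Mir451a, Mir126a and Mir137. Others are named where a list is described, and Mir155 because it was called. Members and lists were chosen with earlier results of these data known. No genome sequence was used, so arms were searched among RefSeq hairpins only.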

Additional observations from a re-analysis of the deposited data

How the results depend on the processing

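The family's mean level was 960 CPM when scaled to all reads of the library, 2836 CPM with the highest gene left out of the totals and 2290 CPM with counts regardless of strand over their own total. These alternatives change the denominator by construction, since the family had no opposite-strand count. With TMM it was 2543 CPM and with DESeq2 size factors 2543.5 CPM. Leaving out either replicate gave 2413 to 2670 CPM. Rescaling a library multiplies all its genes by 1 factor, so these alternatives do not test the order of the genes within a library or the shares of the loci, and with 2 livers leaving out 1 does not test them either. Mir181a-1, Mir181c and Mir181d were called higher in replicate 1 with TMM, DESeq2 size factors, totals without the highest gene and counts regardless of strand, and with the other count minimums, which change only the adjustment, with exact binomial adjusted p from 0.000188 to 0.00359, from 5.2e-06 to 0.00238 and from 0.000882 to 0.0309. Mir181a-2, Mir181b-1 and Mir181b-2 passed in none of these. The pseudocount does not enter the test. A minimum of 100 counts left Mir181b-1 untested. The comparison could not be run with 1 replicate left out. No paired analysis was possible because there is 1 group. Depth limits Mir181b-1 most, whose interval between the livers runs from 0.405 to 2.27.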
